A study of Mus musculus with 8 samples.

Results

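Mitochondrial ribosomal protein genes were examined in mouse megakaryocytes grown in a soft hydrogel or in liquid medium. They were taken as every listed gene whose symbol starts with Mrpl or Mrps followed by a number, with 4 processed pseudogenes left out, which gave 78 of the 27679 genes listed, 49 named Mrpl and 29 named Mrps. Megakaryocytes are large, polyploid cells of the marrow that shed platelets. Lineage-negative cells from the bone marrow of wild-type (WT) C57BL/6 mice were cultured for 3 days either in a 3D hydrogel (methylcellulose at 2%, Young modulus from 30 to 60 Pa) or in liquid, and the larger, mature megakaryocytes were then isolated on a BSA gradient. The age of the mice and the make-up of the medium are not given here. PolyA RNA was sequenced from 4 cultures of each kind, which the submitters call independent biological replicates, so each p-value below measures a difference against the spread between 4 and 4 cultures.

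The mitochondrial ribosome is a separate ribosome inside the organelle that translates the few mRNAs encoded by mitochondrial DNA, all of them for subunits of the oxidative phosphorylation complexes. Its ribosomal RNAs come from mitochondrial DNA, while its proteins are encoded in the nucleus, made in the cytosol and imported, so that a working ribosome draws on both genomes. Some of the proteins have a counterpart in bacterial ribosomes, and others are found only in mitochondria. In megakaryocytes mitochondria supply energy to the growing cell and are also passed on to the platelets.

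Totals ran from 27012172 to 37059314 counts per library in hydrogel and from 28825468 to 49281611 in liquid. All 20 listed megakaryocyte markers could be tested, and their summed level was 41183.8 to 60120.8 CPM (counts scaled to a library of equal size) in hydrogel and 46297.3 to 78645.4 in liquid, with 13 of the 20 lower and 0 higher in hydrogel. Macrophage markers moved with the culture as well. Of 24 listed, 22 could be tested and 18 were higher, with a summed level of 5721.8 to 12889.6 CPM in hydrogel and 1466.1 to 3189.0 in liquid, and 0 of the 24 was at 0 in every library (Vsig4 and Cd163 had too few counts to test). Mast cell and basophil markers moved too, at a far lower level: 7 of 8 tested were lower in hydrogel and 0 higher, with a median log2 change of −1.39 and summed levels of 77.4 to 192 CPM in hydrogel and 138 to 594 in liquid. Of 11 tested neutrophil markers 1 was higher and 1 lower (427 to 993 and 437 to 1929.9 CPM), and of 5 tested erythroid markers 2 were lower and 0 higher (84.9 to 158 and 117 to 182 CPM). The macrophage markers were used in fits given below, which cannot tell their part in the results from that of the culture. The part of the other cell types was not tested. In these bulk samples fewer cells of a type and less RNA per cell cannot be told apart.

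Transcripts of the mitochondrial ribosome as a whole were at nearly the same level in both cultures. With CPM scaled by edgeR's TMM factors, the 78 genes together made up 2433, 2476, 2362 and 2587 CPM in hydrogel 1 to 4 and 2634, 2496, 2346 and 2481 CPM in liquid 1 to 4. The ranges lay over each other, with means of 2464.3 ± 94.2 and 2489.4 ± 118 (SD, n = 4 each). The 77 genes that belong to the 2 subunits split into 51 of the large and 26 of the small subunit, Mrps30 and Mrps18a being part of the large one despite their names. The summed CPM of the large subunit was 2.21 to 2.28 times that of the small one in hydrogel and 2.14 to 2.21 times in liquid. The 2 ranges met at hydrogel 1 and liquid 1, both 2.21.

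Each gene was then tested with edgeR's quasi-likelihood test over the 13845 genes with enough counts, and a gene passed at a Benjamini-Hochberg adjusted p under 0.05. Of the 78 genes, 76 could be tested and 9 passed (11.8%), against 29.3% of all tested genes. Higher in hydrogel were 3, against a background of 15.1%, and lower were 6, against 14.1%. The 2 cultures did not overlap in CPM for 9 of the 76 (4 higher, 5 lower), against 28.4% of all tested genes. The share of these genes that passed was thus below the background in both directions. At an unadjusted p under 0.05 there were 16.

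The changes were small. The median log2 fold change, hydrogel over liquid, was −0.01, the same as over all tested genes. Its sign followed the scaling, with 0.06 from library totals alone and −0.06 from upper-quartile scaling, which moved all tested genes alike (0.05 and −0.06). There were 37 genes above and 39 below 0, with a range from −0.63 to 0.37. The median size of the change, regardless of sign, was 0.11 on the log2 scale, against 0.24 over all tested genes. At least a 1.5-fold change was reached by 1 of the 76 (1.32%, against 22.5% of all), and a 2-fold change by 0. The data also bounded the change: the 95% interval lay inside 1.5-fold either way for 72 of the 76 (94.7%), against 50.5% of all tested genes. The 4 whose interval reached further were Mrps6, Mrps18a, Mrps33 and Mrps36. Over the 8 libraries the 76 genes had a median SD of log2 CPM of 0.12, against 0.24 over all tested genes. This SD includes the difference between the cultures, and the 2 sets were not matched for level.

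**Figure D1:**
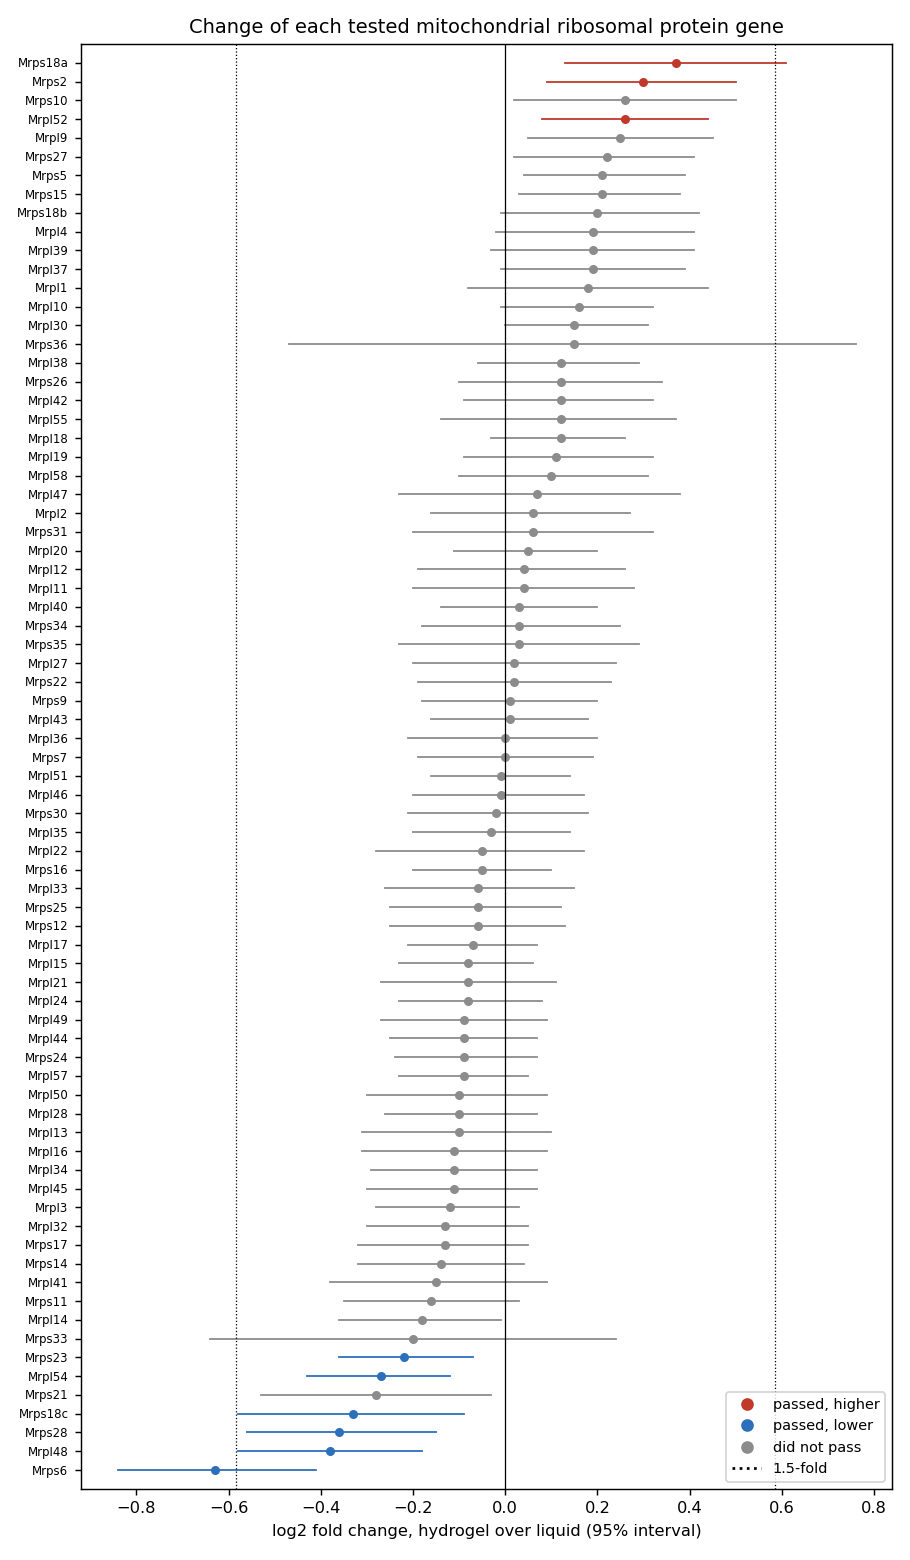
Log2 fold change (hydrogel over liquid, horizontal axis) with its 95% interval for each of the 76 tested mitochondrial ribosomal protein genes, ordered by the change; red and blue mark genes that passed the test as higher or lower, and dotted lines mark 1.5-fold. Values run from −0.63 for Mrps6 to 0.37 for Mrps18a, and most intervals cross 0.

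The stretches upstream of 6 starts are shown. They belong to the 2 largest falls (Mrps6 and Mrpl48) and the 2 largest rises (Mrps18a and Mrps2) among the genes that passed. Added were the 3 relatives of bacterial ribosomal protein S18 (Mrps18a, Mrps18b and Mrps18c), 1 of which passed as higher and 1 as lower. Each run is the 200 bases before the start, written 5′ to 3′ along the gene's own strand, from RefSeq's windows on build GRCm38.p6. Capitals mark matches, on either strand, to 4 motifs of factors known for nuclear genes of mitochondria or growth: GCGCATGC (NRF1), CCGGAAG (ETS factors such as GABP), AAGATGGC (YY1) and CACGTG (the E-box).
Mrps6, chr16:92058136-92058335, strand plus: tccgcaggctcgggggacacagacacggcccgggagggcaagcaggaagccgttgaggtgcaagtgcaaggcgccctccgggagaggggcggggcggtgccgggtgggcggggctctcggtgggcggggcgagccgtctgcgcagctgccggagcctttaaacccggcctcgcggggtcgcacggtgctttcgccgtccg
Mrpl48, chr7:100608302-100608501, strand minus: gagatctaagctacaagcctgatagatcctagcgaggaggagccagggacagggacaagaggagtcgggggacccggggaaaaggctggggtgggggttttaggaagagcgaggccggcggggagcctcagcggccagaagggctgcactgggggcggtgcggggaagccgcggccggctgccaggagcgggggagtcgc
Mrps2, chr2:28467866-28468065, strand plus: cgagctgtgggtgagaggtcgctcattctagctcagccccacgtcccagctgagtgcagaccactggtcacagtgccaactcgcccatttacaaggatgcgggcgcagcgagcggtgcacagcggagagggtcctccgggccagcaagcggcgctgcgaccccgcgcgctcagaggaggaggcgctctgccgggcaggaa
Mrps18a, chr17:46110804-46111003, strand plus: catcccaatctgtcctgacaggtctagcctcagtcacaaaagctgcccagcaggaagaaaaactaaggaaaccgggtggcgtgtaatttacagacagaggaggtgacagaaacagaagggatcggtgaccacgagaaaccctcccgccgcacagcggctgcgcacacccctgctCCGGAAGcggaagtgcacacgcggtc
Mrps18b, chr17:35916441-35916640, strand minus: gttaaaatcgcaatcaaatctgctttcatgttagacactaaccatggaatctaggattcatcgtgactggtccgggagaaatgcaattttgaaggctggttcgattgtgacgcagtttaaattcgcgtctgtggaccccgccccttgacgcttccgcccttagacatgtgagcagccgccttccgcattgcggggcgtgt
Mrps18c, chr5:100798559-100798758, strand plus: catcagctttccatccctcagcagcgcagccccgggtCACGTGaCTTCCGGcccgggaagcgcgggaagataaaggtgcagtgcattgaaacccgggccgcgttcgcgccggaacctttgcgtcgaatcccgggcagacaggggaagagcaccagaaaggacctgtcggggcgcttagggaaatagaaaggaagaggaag

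In these stretches Mrps18a had CCGGAAG at 26 to 20 bases before the start, Mrps18c had CTTCCGG (the same motif on the other strand) at 156 to 150 bases and CACGTG at 163 to 158 bases before it, and the other 4 held 0 of the motifs. For Mrpl48, which has 4 starts in the table, the most upstream was used. Windows of 300 bases, 250 before and 50 after a start, were given for 69 of the 78 genes (75 windows). In these wider windows, outside the bases printed above, Mrps18b held the NRF1 and ETS motifs and Mrps18a also the YY1 motif. Mrpl48 held the ETS motif in at least 1 of its windows, while Mrps6 and Mrps2 held 0 of the motifs. The ETS motif was in 34.7% of these windows, against 17.4% of the windows of tested genes and 8.86% of all 32851 windows. The YY1 motif was in 16.0% (4.47% and 2.75%), the NRF1 motif in 10.7% (5.11% and 2.71%) and the E-box in 9.33% (9.80% and 7.15%). At least 1 of the 4 was in 56.0% of the 75 windows, against 31.8% of the windows of tested genes and 19.1% of all windows. Of the 69 genes with a window, 26 held the ETS motif. Genes with and without it had median log2 fold changes of −0.05 and 0.00. Of the 7 passing genes with a window 5 held it, in both directions, and whether the motif goes with passing was not tested. A match is a description of the letters in the window, not evidence of binding.

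Among the small subunit proteins, 26 were tested, 1 was higher and 4 were lower, with a median of −0.03. These 5 were 19.2% of the 26, against 29.3% of all tested genes (15.1% higher and 14.1% lower). Mrps6, the counterpart of bacterial protein S6, had the largest change of the whole set. Its level was 9.2, 10.4, 9.6 and 10.3 CPM in hydrogel 1 to 4 and 14.3, 15.2, 16.7 and 14.5 CPM in liquid 1 to 4. Every hydrogel library was below every liquid one, and the mean was 1.54-fold lower (9.86 ± 0.553 against 15.2 ± 1.08 CPM, SD, n = 4). On the log2 scale it fell by 0.63 with an SE of 0.09 (edgeR's quasi-likelihood test, adjusted p = 0.00127). Mrps6 lies with Slc5a3, the gene of a sodium-coupled myo-inositol transporter, and in GENCODE M21 it shares exon bases on the same strand with Slc5a3 (10.4% of those of Mrps6) and with the predicted gene Gm49711 (19.9%, as for both together). Slc5a3 had 6.49, 6.56, 6.42 and 7.38 CPM in hydrogel and 13.0, 13.6, 13.2 and 14.3 CPM in liquid, a log2 change of −1.01 (SE 0.10, edgeR adjusted p = 0.000227). Reads on the shared bases cannot be assigned to 1 gene from the table, and their part in the fall of Mrps6 was not tested.

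Mrps28, the counterpart of bacterial protein S1, had 15.2, 15.4, 14.2 and 15.9 CPM in hydrogel and 20.3, 18.8, 17.3 and 21.3 CPM in liquid, without overlap. It fell by 0.36 on the log2 scale (SE 0.09, edgeR adjusted p = 0.0161). Mrps23, a protein found only in mitochondrial ribosomes and the member with the most counts, had 111, 104, 105 and 115 CPM in hydrogel and 130, 116, 127 and 130 CPM in liquid. Hydrogel 4 lay just below liquid 2 without overlap, and the fall was 0.22 (SE 0.06, edgeR adjusted p = 0.0289). In the other direction Mrps2, the counterpart of bacterial protein S2, had 41.2, 43.6, 46.1 and 42.1 CPM in hydrogel and 33.6, 40.9, 30.7 and 35.7 CPM in liquid. Liquid 2 lay just below hydrogel 1 without overlap, and the rise was 0.30 (SE 0.09, edgeR adjusted p = 0.0347).

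The 3 relatives of bacterial S18 are encoded by separate genes, and their products sit at different places: that of Mrps18a in the large subunit, and those of Mrps18b and Mrps18c in the small one. Mrps18a had 28.0, 32.3, 25.5 and 32.8 CPM in hydrogel and 25.5, 24.0, 20.2 and 22.2 CPM in liquid. Hydrogel 3 and liquid 1 met at 25.5 CPM, and the other hydrogel libraries were above every liquid one. The change was 0.37 (SE 0.11, edgeR adjusted p = 0.0273), the largest rise of the set. Mrps18c had 19.0, 17.9, 15.1 and 20 CPM in hydrogel and 22.3, 23.6, 19.9 and 24.9 CPM in liquid. Hydrogel 4 and liquid 3 overlapped narrowly, and the fall was 0.33 (SE 0.11, edgeR adjusted p = 0.0431). Mrps18b had 14.2, 16.0, 15.4 and 14.1 CPM in hydrogel and 13.9, 13.9, 11.6 and 12.5 CPM in liquid, without overlap, and did not pass (log2 change 0.20, 95% interval −0.01 to 0.42, edgeR adjusted p = 0.145). The difference in change between these relatives was not tested.

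Among the large subunit proteins, 49 were tested, 2 were higher and 2 were lower, with a median of −0.01. These 4 were 8.16% of the 49, below the share over all tested genes. All 4 belong to the 20 tested without a counterpart in the large subunit of bacteria, of which Mrps18a is a relative of a bacterial small subunit protein. Of the 29 with such a counterpart 0 passed edgeR's test, 2 had an unadjusted p under 0.05, and 1 (Mrpl9) passed with DESeq2 and with limma-voom. In the small subunit the split went the other way. There 4 of the 16 with a bacterial counterpart passed edgeR's test, and 1 of the 10 classed as mitochondrial only. In each subunit the share of either kind that passed was below the 29.3% of all tested genes. The difference between the 2 kinds was not tested in either subunit. Mrpl48, which sits in the central protuberance of the large subunit, had 13.4, 13.0, 13.6 and 14.6 CPM in hydrogel and 18.3, 15.7, 18.7 and 18.3 CPM in liquid. The cultures did not overlap, liquid 2 being the lowest of its group, and the fall was 0.38 (SE 0.09, edgeR adjusted p = 0.0112). Mrpl48 shares 8.7% of its exon bases with Rab6a on the opposite strand, and Rab6a did not pass (−0.26, edgeR adjusted p = 0.114).

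Mrpl54 and Mrpl52, 2 further proteins of the large subunit found only in mitochondria, moved in opposite directions. Mrpl54 had 48.9, 46.9, 46.9 and 52.1 CPM in hydrogel and 63.4, 60.1, 58.8 and 53.3 CPM in liquid, and fell by 0.27 on the log2 scale (SE 0.07, edgeR adjusted p = 0.0167). Hydrogel 4 and liquid 4 were close but did not overlap. Mrpl52 had 29.2, 33.4, 30.6 and 29.5 CPM in hydrogel and 27.5, 25.9, 25.8 and 23.1 CPM in liquid. Again all hydrogel libraries lay on 1 side of all liquid ones, and the rise was 0.26 (SE 0.08, edgeR adjusted p = 0.0351).

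**Figure D2:**
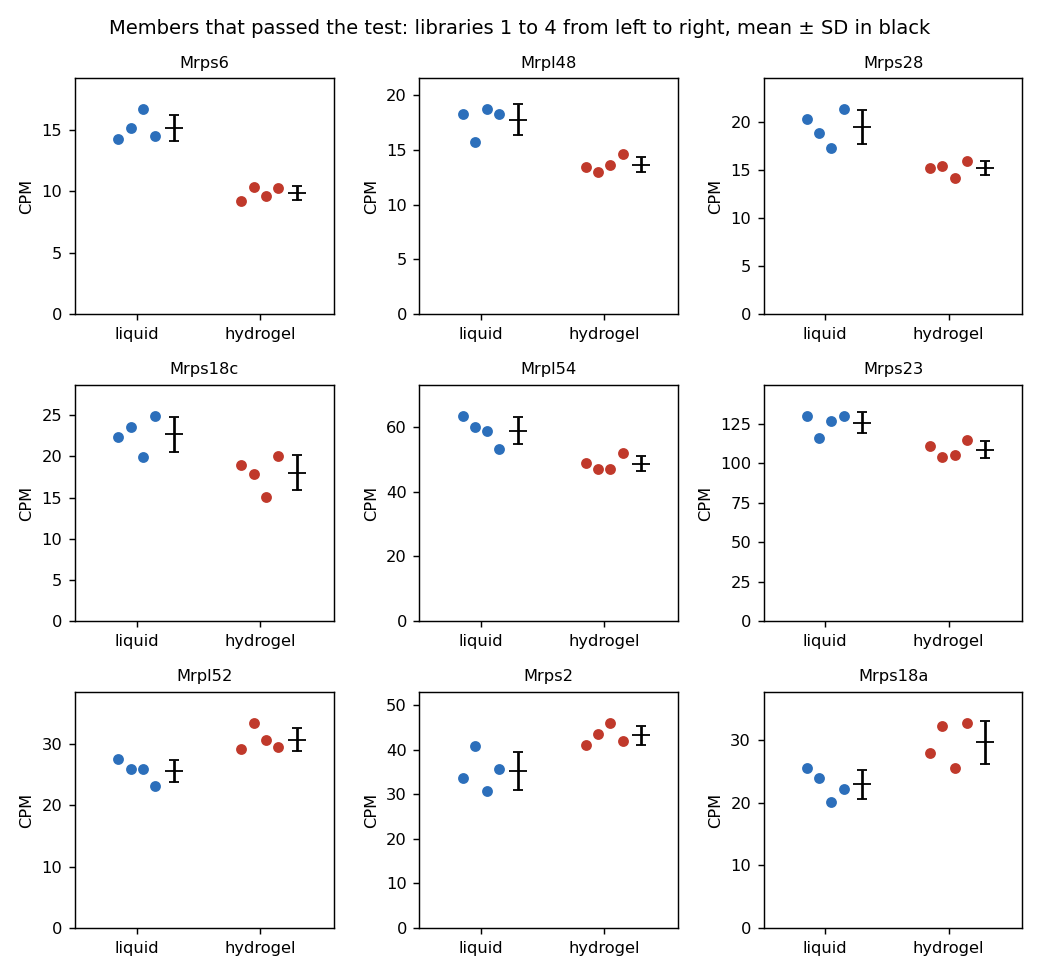
CPM (vertical axis, from 0) in liquid 1 to 4 (blue) and hydrogel 1 to 4 (red) for the 9 genes that passed, with the mean and SD of each culture in black. Mrps6 shows the widest gap, with 14.3 to 16.7 CPM in liquid and 9.2 to 10.4 in hydrogel, while for Mrps18a and Mrps18c the cultures touch or overlap.

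Near the threshold, Mrps18c (0.0431), Mrpl52 (0.0351) and Mrps2 (0.0347) had the largest adjusted p of those inside it with edgeR. Just outside were Mrpl9 (log2 change 0.25, adjusted p = 0.0616), Mrps5 (0.21, 0.0652) and Mrps15 (0.21, 0.0788), counterparts of bacterial proteins L9, S5 and S15. How well the 9 calls held differed. Mrps6 and Mrpl48 passed in all 8 fits that left out a single library, Mrps28 in 7 (not without hydrogel 3, adjusted p = 0.0539) and Mrpl54 in 6 (not without hydrogel 2 or hydrogel 3). Mrps18a passed in 4 (not without hydrogel 2, hydrogel 4, liquid 3 or liquid 4), and Mrps23 and Mrpl52 in 3 each. Mrps23 was lost without hydrogel 2, hydrogel 3, liquid 1, liquid 3 or liquid 4, and Mrpl52 without hydrogel 2, hydrogel 3, hydrogel 4, liquid 3 or liquid 4. Mrps2 passed only without hydrogel 1 or liquid 2, and Mrps18c only without hydrogel 4 or liquid 3. In these 8 fits the share of all tested genes that passed lay between 19.1% (without hydrogel 2) and 35.4% (without liquid 2). With upper-quartile scaling, which moved the median of all tested genes to −0.06, the count was 0 higher and 8 lower in place of 3 and 6.

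The macrophage score, the mean centred log2 CPM of those markers, was 0.28 in hydrogel 1 and up to 1.33 in the other hydrogel libraries, and it was −1.48, −0.15, −1.44 and −1.08 in liquid 1 to 4, and 81.9% of its variance was shared with the culture. Hydrogel 1 was the lowest of its group and liquid 2 the highest of its own. Without both of them, a choice made after seeing the data, 13 genes passed, 7 higher and 6 lower. That is 17.1% of them, while the share of all tested genes that passed rose from 29.3% to 40.6%. With the score as a covariate, also chosen after seeing the data, 0 of the 76 passed edgeR's test, the smallest adjusted p was 0.0969 (Mrps6, log2 change −0.71) and 2 had an unadjusted p under 0.05. In that fit the count of all genes that passed dropped from 4052 to 720, and Mrps2 had a log2 change of −0.09. The culture and the macrophage markers are thus largely confounded and their parts in these changes cannot be told apart.

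Genes known for a particular place or task in the mitochondrial ribosome were also followed whether or not they passed. Mrpl12, which forms the stalk that recruits translation factors, had 63.2 ± 6.29 CPM in hydrogel and 61.7 ± 7.3 in liquid (SD, n = 4; log2 change 0.04, 95% interval −0.19 to 0.26). Mrpl3, a core protein of the large subunit, had 63.5 ± 5.25 and 69.2 ± 2.02 CPM (−0.12, −0.28 to 0.03). Mrps12, which lies at the decoding centre, had 25 ± 1.55 and 26.1 ± 2.25 CPM (−0.06, −0.25 to 0.13). For Mrpl12 and Mrps12 the means differed by less than the SD within either culture. Mrpl58, a peptidyl-tRNA hydrolase that rescues stalled ribosomes, had 21 ± 1.54 and 19.6 ± 1.72 CPM (0.10, −0.10 to 0.31). Mrps27, a pentatricopeptide repeat protein of the small subunit, had 27.9 ± 1.92 and 24.0 ± 2.21 CPM (0.22, 0.02 to 0.41) and an edgeR adjusted p of 0.0942. The remaining 4 of this kind were Mrpl1 of the mobile stalk (0.18, −0.08 to 0.44), Mrpl57 (−0.09, −0.23 to 0.05), Mrps30 (−0.02, −0.21 to 0.18) and Mrps36 (0.15, −0.47 to 0.76), given as log2 changes with 95% intervals. Mrps36 carries the name of a small subunit protein but belongs to the 2-oxoglutarate dehydrogenase complex of the citric acid cycle, and its wide interval goes with low counts (3.35 ± 1.05 and 3.01 ± 0.82 CPM).

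Levels differed far more between genes than between cultures. Per kilobase of exon, the median over the 76 tested genes was 18.5 CPM, with quartiles at 10.8 and 30.3. The highest levels per kilobase were those of Mrpl54 (89.1), Mrpl20 (82.7) and Mrps23 (82.1), and the lowest those of Mrps33 (1.80), Mrpl48 (3.34) and Mrpl47 (3.45). Mrpl20, whose bacterial counterpart is needed early in the assembly of the large subunit, had 77.8 ± 5.05 CPM in hydrogel and 75.3 ± 4.8 in liquid, and Mrps33 had 2.57 ± 0.181 and 2.95 ± 0.677 CPM, neither passing. The exon length is that of the union of the exons of protein-coding transcripts, which is large for some genes (4696 bases for Mrpl48, with a coding sequence of 633), and this lowers the level per kilobase.

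Only Mrpl23 and Mrpl53 had too few counts to be tested, which covers every gene of the 78. Mrpl23, the counterpart of bacterial L23 at the exit of the peptide tunnel, had 3 to 14 reads per library, and Mrpl53 had 0 to 2. In GENCODE M21 Mrpl53 shares 88.0% of its exon bases with Gm42688 on the same strand, which had 8 to 64 reads per library, and reads there cannot be assigned to either gene from the table. Mrpl23 shares 0% of its exon bases with another gene. Its processed pseudogene Mrpl23-ps1, left out of the set, had 1 to 9 reads per library, and whether it took reads of Mrpl23 was not tested. For Mrpl23 and Mrpl53 the low count says only how many reads the authors' counting assigned to them. In all, 33 of the 78 share exon bases with another gene in that annotation, 8 on the same strand and 28 on the opposite strand. Of the 9 that passed, 3 do (Mrps6, Mrpl48 and Mrps18c, the last with Gm43511 over 23.2% of its exon bases) and 6 do not.

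The level of these transcripts was then set beside the share of counts on mitochondrially encoded genes, the mRNAs that this ribosome translates. That share was 2.25%, 1.98%, 2.21% and 2.48% in hydrogel 1 to 4 and 3.85%, 5.21%, 2.27% and 3.84% in liquid 1 to 4. The hydrogel libraries lay close together, and liquid 3 fell within their range while the other liquid libraries were above it. The mean was 2.23% ± 0.204 against 3.79% ± 1.20 (SD, n = 4), a difference of −1.56 percentage points, with p = 0.0571 by an exact two-sided permutation test whose smallest possible p is 0.0286. The share was 1.70 times as high in liquid by its mean, and the difference ran from −2.07 without liquid 3 to −1.09 without liquid 2. Counts on mitochondrial genes per count on mitochondrial ribosomal protein genes were 9.37, 7.69, 9.21 and 9.16 in hydrogel and 15, 19.8, 10.5 and 16.0 in liquid. For this ratio the cultures did not overlap, with liquid 3 nearest to hydrogel.

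**Figure D3:**
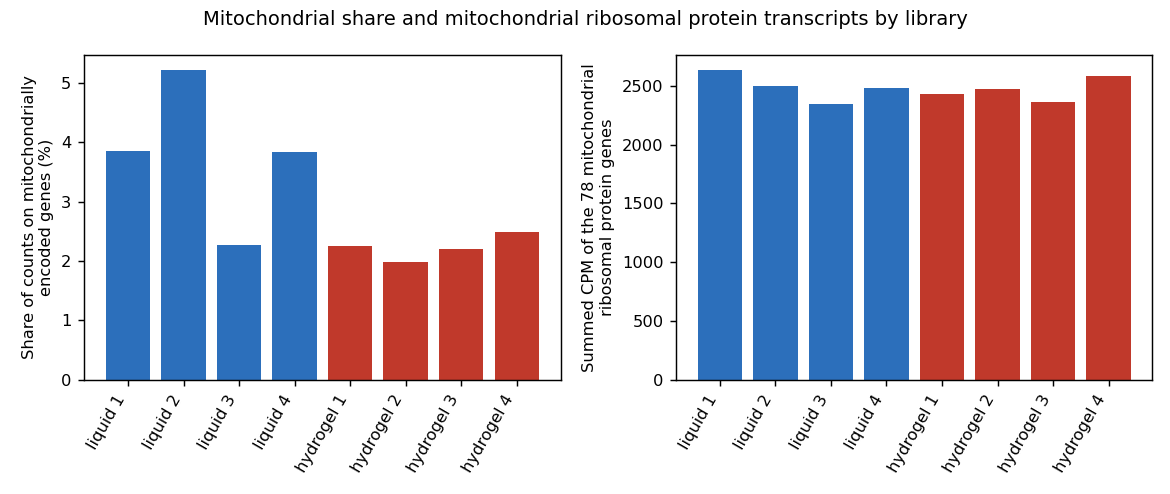
Left, share of each library's counts on mitochondrially encoded genes (%); right, summed CPM of the 78 mitochondrial ribosomal protein genes; liquid in blue and hydrogel in red, 1 bar per library. The share runs from 1.98% to 5.21% while the sum stays between 2346 and 2634 CPM.

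Across the 8 libraries the summed CPM and the mitochondrial share gave Pearson's r = 0.43 and Spearman's rho = 0.67, and r = 0.27 without liquid 1 and liquid 2, the libraries farthest from the median share. With the sum per nuclear-encoded count in place of the TMM scale, r was 0.48 and rho 0.60, and r was 0.02 without these libraries, so on that scale the relation rested on them. This is a description with no test, since the libraries fall into 2 cultures that differ in the share. Within hydrogel the library with the highest share, hydrogel 4, also had the highest sum, and hydrogel 2 had the lowest share but the highest sum but 1. Within liquid the lowest share and the lowest sum were both those of liquid 3, while liquid 2 had the highest share and liquid 1 the highest sum. Gene by gene, 49 of the 76 had a positive r with the share (median 0.27, from −0.64 for Mrpl52 to 0.80 for Mrpl21), beside 7156 of 13845 over all tested genes (median 0.03). The points share their libraries, depth and scaling.

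As a share of counts the mitochondrially encoded mRNAs made up 2.22% in hydrogel and 3.79% in liquid, with p = 0.0571 by the exact permutation test. Gene by gene, most of those tested were lower in hydrogel. Of 13 protein-coding genes in mitochondrial DNA 11 were in the table, 7 could be tested and 6 passed. All 6 were lower (85.7% of the 7, against 14.1% of all tested genes), with adjusted p from 0.00765 to 0.0208 with edgeR. They were mt-Nd4 (log2 change −0.89), mt-Nd5 (−0.90), mt-Nd2 (−0.73) and mt-Nd1 (−0.73) of complex I, mt-Cytb (−0.85) of complex III and mt-Co1 (−0.80) of complex IV. As an example, mt-Nd4 had 1956.4, 1548.8, 1892.8 and 2055.9 CPM in hydrogel and 3638.3, 4387.2, 2226.0 and 3579.2 CPM in liquid, with liquid 3 nearest to hydrogel but no overlap. Without hydrogel 2, 2 of the 7 passed, without hydrogel 3, 4 passed, and 6 passed when the macrophage score was added as a covariate. mt-Nd6 did not pass (−0.50, edgeR adjusted p = 0.127). mt-Co2, mt-Co3, mt-Atp6 and mt-Nd3 had 0 to 7 reads per library, so the share of counts covers only part of the mitochondrial transcripts; mt-Atp8 and mt-Nd4l were not analysed here.

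The nuclear partners of these mRNAs, the subunits of the same oxidative phosphorylation complexes, also moved: of 74 tested, 29 were lower (39.2%, against 14.1% of all tested genes) and 0 higher (against 15.1%), with a median of −0.23. The smallest adjusted p with edgeR were those of Ndufa3 (−0.83, 0.000799) and Ndufa2 (−0.40, 0.00119) of complex I and Cox6a1 (−0.59, 0.00106) and Cox5a (−0.71, 0.00133) of complex IV. The count of 29 dropped to 16 without hydrogel 2, 18 without hydrogel 3, 18 without liquid 1 and 19 without liquid 4. It was 17 when only library totals were used for scaling, and 0 when the macrophage score was added. The share of all tested genes that passed also fell, from 29.3% to 19.1%, 20.5%, 23.3% and 21.6% without these libraries. It was 27.4% with library totals and 5.2% with the score. For the mitochondrial ribosomal proteins, the median was −0.01, and 6 were lower of 76. The difference between these lists was not tested.

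**Figure D4:**
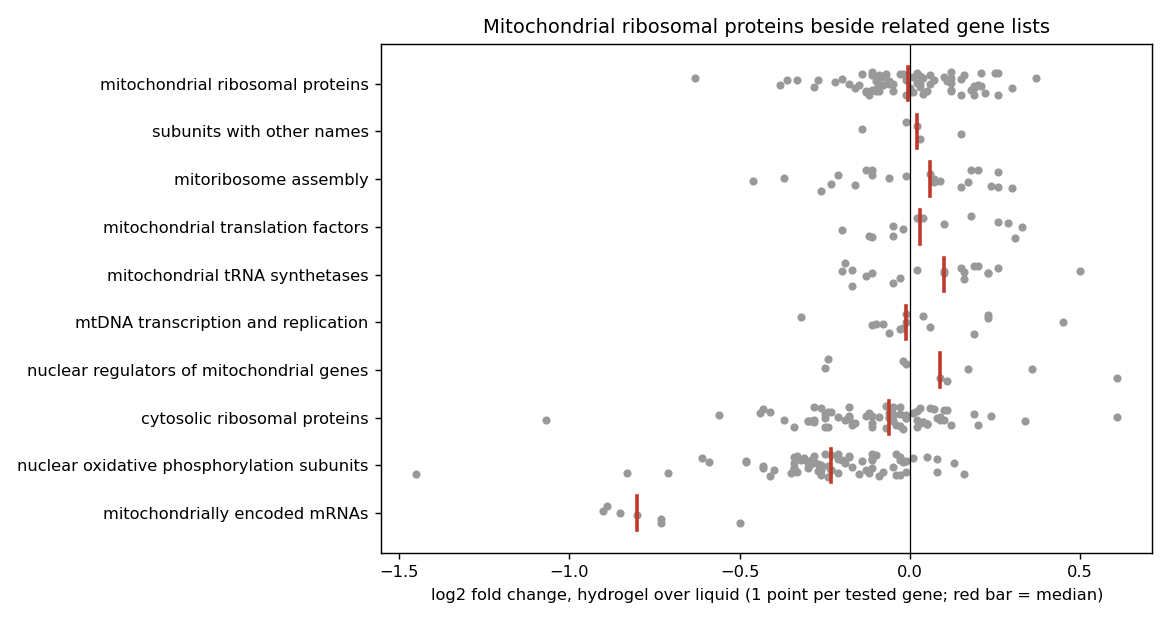
Log2 fold change (hydrogel over liquid, horizontal axis) of every tested gene of each list, 1 point per gene, with the median as a red bar. The mitochondrial ribosomal proteins centre on −0.01, the nuclear oxidative phosphorylation subunits on −0.23 and the 7 tested mitochondrially encoded mRNAs on −0.80.

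The other genes for making and running the mitochondrial ribosome were counted list by list, against 15.1% of all tested genes higher and 14.1% lower. The 5 subunits that carry other names (Dap3, Gadd45gip1, Chchd1, Ptcd3 and Aurkaip1) had a median of 0.02 with log2 changes from −0.14 to 0.15, and 0 passed edgeR's test, DESeq2 or an unadjusted p under 0.05. Of 23 assembly factors 2 were lower and 0 higher (8.70% passing), with a median of 0.06. These were Rbfa (191 ± 14.0 against 263 ± 31.6 CPM, log2 change −0.46, edgeR adjusted p = 0.0058), which binds the small subunit while it matures, and Nsun4 (−0.26, 0.0352), which methylates its ribosomal RNA. Of 15 translation factors and partners 3 were higher and 0 lower (20% passing), with a median of 0.03. Gfm1, the factor that moves the ribosome along the mRNA, rose from 53.3 ± 5.46 to 67.0 ± 2.30 CPM (0.33, edgeR adjusted p = 0.0117). Gfm2, which recycles ribosomes, rose by 0.31 (0.0278) and the initiation factor Mtif3 by 0.29 (0.0336). The count of 3 was 1 without hydrogel 1, hydrogel 2, hydrogel 4 or liquid 4, and 1 with upper-quartile scaling. The assembly count of 2 was 1 without hydrogel 2, hydrogel 3, hydrogel 4, liquid 3 or liquid 4.

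Of 20 mitochondrial tRNA synthetases and related amidotransferase subunits 1 was higher, Qrsl1 (6.98 ± 0.843 against 4.95 ± 0.558 CPM, log2 change 0.50, edgeR adjusted p = 0.0248), part of the enzyme that completes glutaminyl-tRNA, and the median was 0.10. It was the single call of that list, which had 0 without hydrogel 2, hydrogel 4, liquid 1 or liquid 3 and 2 without hydrogel 1 or liquid 4. Of 15 genes for the transcription and replication of mitochondrial DNA, 0 passed edgeR's test and 0 DESeq2, 1 had an unadjusted p under 0.05, and the median was −0.01; without liquid 2 there were 2. Tfam, which packages mitochondrial DNA and starts its transcription, had a log2 change of −0.06 (edgeR adjusted p = 0.6). Of 9 tested nuclear regulators of mitochondrial genes, Pprc1, a coactivator related to PGC-1, was higher (0.36, 0.0372) and Gabpb1, a subunit of the ETS factor GABP, lower (−0.25, 0.0291). That count of 2 was 1 or 0 in each fit that left out a single library except liquid 2. Ppargc1a had too few counts to test, and Nrf1 had a log2 change of −0.02 (edgeR adjusted p = 0.843).

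The proteins of the cytosolic ribosome were set beside those of the mitochondrial one. Of 76 tested, 5 were lower and 1 higher, with a median of −0.06, beside 6 and 3 of 76 for the mitochondrial ribosome with a median of −0.01. Lower were, among others, Rpl15 (−0.44, edgeR adjusted p = 0.00426), Rpl13a (−0.28, 0.0108) and Rpl5 (−0.56, 0.016), all of the large subunit. The count of 6 was 3 without hydrogel 2, hydrogel 3 or liquid 4, 4 without liquid 1 and 12 without liquid 3. The 2 protein sets thus had shares of passing genes of 7.89% and 11.8%, both below the 29.3% of all tested genes. Reads of cytosolic ribosomal protein genes can be split with their many near-identical pseudogenes. Some had few counts, such as Rps16 (0.668 ± 0.292 CPM in hydrogel), beside 967 ± 33.2 for Rpl4. Their 95% interval lay inside 1.5-fold either way for 67.1%, against 94.7% of the mitochondrial set. The 2 shares of passing genes were thus not measured equally well.

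A property that the choice of genes did not use went with the direction of change within the set. Over the 76 tested genes the length of the longest coding sequence and the log2 change had a Spearman's rho of 0.40, beside 0.13 over 12020 tested genes with a coding length. The correlation is across genes, which are not independent replicates, and it is a description. Of the 38 genes with a coding sequence of at most 588 bases, 2 were higher and 5 lower, 11 had a change above 0 and the median was −0.08. Of the 38 with 600 bases or more, 1 was higher and 1 lower, 26 had a change above 0 and the median was 0.05. The short and the long genes thus leaned in opposite directions by under 0.1 on the log2 scale each. The same lean was present over all tested genes: of 1495 with up to 594 coding bases 20.4% were lower and 10.4% higher (median −0.10), and of 10525 longer ones 13.9% were lower and 17.7% higher (median 0.02). Exon length and GC content had a rho of 0.06 and 0.08 with the change over the 76 genes.

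**Figure D5:**
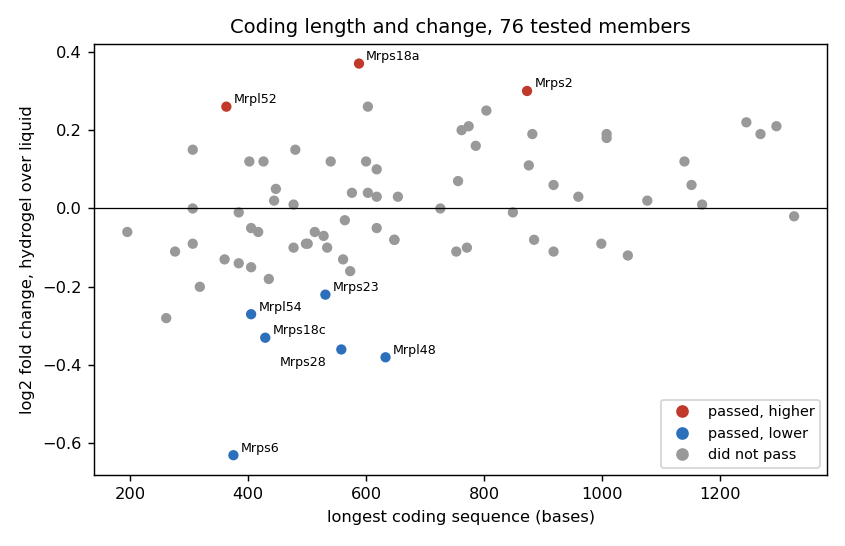
Log2 fold change (hydrogel over liquid, vertical axis) against the longest coding sequence in bases (horizontal axis) for the 76 tested genes, 1 point per gene, with those that passed coloured and named. Of the 6 that passed as lower, 5 have a coding sequence of at most 588 bases, and Mrpl48 has 633.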

How the data were processed

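Stranded libraries of polyA RNA were sequenced from 8 cultures, 4 of each kind, grouped by the sample labels. The authors deposited a table of raw read counts per gene, in whole numbers and without normalization. Per the submitters' processing notes the tools were bcl2fastq, STAR (2.7.10b) and HTSeq (0.13.5), on build GRCm39. The annotation release, the strand setting and the treatment of reads that match several genes are not given in the sources, so genes with overlapping partners or near-identical copies are uncertain.

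The table lists 27679 genes, and 2 lines without a gene were dropped, with 0 sample columns unused. Symbols, lengths and exon overlaps came from GENCODE M21, on another build. The lengths and overlaps rest on its exon coordinates, which were not compared with the build used for counting. Symbols were found for 26534 identifiers, and the 1145 others held at most 0.135% of the counts in any library. Promoter stretches came from RefSeq (GRCm38.p6). Genes were kept with edgeR's filterByExpr by group, scaled by TMM and put through the quasi-likelihood test of edgeR 4.0.16 in R 4.3.3 with a single term for culture and Benjamini-Hochberg adjustment over 13845 genes. Each SE is the absolute log2 fold change over the square root of F, and the 95% interval uses it with the fit's degrees of freedom. CPM are TMM-scaled. Marker scores are means of centred log2 CPM (prior count 2). The script was tested on simulated counts. Python 3.11.15 with pandas 2.3.3, numpy 2.4.6, scipy 1.17.1 and matplotlib 3.10.9 was used for tables, the permutation test and figures.

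The members, the gene lists and the tests were chosen with earlier results of these data known. Named were the members that passed (up to 10 per direction), the 3 nearest the threshold on each side, the 3 with the highest and the 3 with the lowest level per kilobase, those not tested, and a panel of 12. Of each other list up to 4 passing genes with the smallest adjusted p were named; Tfam, Nrf1, mt-Nd6 and the passing mt- genes beyond 4 were named after their values were seen. Alternatives were DESeq2 (1.42.0) and its size factors, upper-quartile scaling, library totals, TMM over nuclear genes, no filter, at least 1 CPM in 4 libraries, limma-voom (limma 3.58.1), the replicate number as a block, an adjusted p under 0.01 and each library left out. The macrophage score as a covariate and the omission of hydrogel 1 with liquid 2 were added after seeing the data.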

Additional observations from a re-analysis of the deposited data

Results flagged for a closer look

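In 3 of the 56 groups of 4 libraries examined, 1 library stood far from the other 3. Chance gives about 1 such group in 20. The mitochondrial counts per count on mitochondrial ribosomal protein genes were 7.69 in hydrogel 2 and 9.16 to 9.37 in the other hydrogel libraries. Mrpl48 had 15.7 CPM in liquid 2 and 18.3 to 18.7 in the other liquid libraries. Mrpl58 had 23.3 CPM in hydrogel 4 and 20.1 to 20.4 in the other hydrogel libraries.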

How the results depend on the processing

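The number of mitochondrial ribosomal protein genes that passed (9, with 3 higher and 6 lower) was 9 with DESeq2's size factors, TMM over nuclear genes or at least 1 CPM in 4 libraries. DESeq2 gave 11 (5 higher), library totals alone 5 (2 lower), upper-quartile scaling 8 (0 higher), an adjusted p under 0.01 gave 1 (0 higher and 1 lower), and the macrophage score as a covariate 0 (0 higher and 0 lower, with Mrps2 at −0.09 in place of 0.30). Without hydrogel 1 and liquid 2 there were 7 higher. Leaving out single libraries gave 3 to 11 passing, 0 to 5 higher and 2 to 6 lower. The count was 4 without hydrogel 2, 3 without hydrogel 3, 5 without liquid 3 and 4 without liquid 4. In the same fits 19.1%, 20.5%, 24.4% and 21.6% of all tested genes passed, against 29.3% in the main fit. Without liquid 2, where 11 members passed, that share was 35.4%. The cause of these changes was not tested, apart from the stricter threshold, which lowers the count by construction. The median log2 change stayed between −0.07 and 0.06 in all 20 fits. The deviations of same-numbered libraries had correlations of 0.22, 0.33, −0.134 and 0.103, and 1 of 4 hydrogel libraries correlated best with its own number, so the numbers were not taken to pair the samples. With the replicate block 9 genes passed, 3 higher and 6 lower, and the cytosolic ribosomal proteins had 11 in place of 6. The mitochondrial share kept a difference of −1.56 points (p = 0.125 by an exact paired permutation). That p is the smallest that 4 pairs allow, so it cannot show whether pairing weakens the difference. Genes at a few CPM, such as Mrps36 and Mrps33, have intervals that reach beyond 1.5-fold, and Mrpl23 and Mrpl53 could not be tested at this depth.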
